A study of Mus musculus with 44 samples.

Results

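Embryonic gut endoderm (emGut) of the E9.5 mouse embryo was compared with the endoderm of the yolk sac (YsEndo). The comparison rested on 12 of the 44 RNA libraries of the study, chosen by their titles: 4 libraries of the midgut (emMidgut), 4 of the hindgut (emHindgut) and 4 of YsEndo. Each library held polyadenylated RNA of a small pool of sorted cells taken from 4 embryos, and the values are in TPM (transcripts scaled to a fixed library total), a level per transcript length. Every embryo was wild type and untreated and had been made by placing a colony of GFP+ mouse embryonic stem cells (ESCs) of the G4 line, which the study's methods call F1G4, next to an mCherry+ CD1/G4 morula, so that the embryo proper descended from GFP+ cells and the extraembryonic tissues from mCherry+ cells. The GFP+ ESCs were expanded from single-cell-derived clones of a male line and carried EGFP behind the CAG promoter at Rosa26. The mCherry+ morulae came from a mouse line founded through single-cell-derived ESC clones with mCherry behind the EF1a promoter. That line was kept by mating its males to C57BL/6J females, and the morulae could be of either sex. emGut cells were enriched on EPCAM beads and sorted as EPCAM+ cells positive for both GFP and mCherry, with low mCherry signal. The study reads such dual-labeled cells as embryonic cells that had taken up remnants of dying mCherry+ cells. YsEndo cells were sorted as EPCAM+ mCherry+ cells. Lineage, strain background, sex, position, sort and the uptake of remnants therefore changed together between emGut and YsEndo, and these cannot be told apart here. The midgut and hindgut libraries share their sort. Per the study's methods the midgut was dissected out by hand, while the hindgut was kept within the most posterior part of the embryo. Position and dissection thus changed together between the regions and cannot be told apart here.

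The endoderm of the visceral yolk sac descends mainly from the primitive endoderm and is the first absorptive and secretory epithelium of the mouse conceptus. It takes up maternal protein through the cubilin, amnionless and megalin receptors, degrades it in large lysosomes, loads lipid onto apolipoproteins and secretes serum proteins before the liver does so. The definitive gut tube, in contrast, is an epithelium that is being patterned along the anterior to posterior axis by Hox and Cdx transcription factors and by hedgehog, Wnt, bone morphogenetic protein (BMP) and retinoic acid signals exchanged with the surrounding mesoderm.

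The lineage reporters followed the labels. EGFP stood at 701, 733, 880.2 and 834 TPM in the 4 emMidgut libraries, at 647, 548, 664 and 629 TPM in the 4 emHindgut libraries and at 0.170, 0, 0 and 0.467 TPM in the 4 YsEndo libraries. mCherry stood at 2186 to 4289 TPM in YsEndo and at no more than 6.61 TPM in any emGut library. Epithelial cadherin, Cdh1, was present throughout (140.4 to 167 TPM in emMidgut, 49.5 to 69.2 TPM in emHindgut, 92.0 to 105 TPM in YsEndo), as was the sort marker Epcam (331 to 892 TPM in emGut and 239 to 279.8 TPM in YsEndo). The list of 14 yolk sac endoderm markers summed to 75091 to 84812 TPM in YsEndo, and 14 of 14 were lower in emGut, against 10.9% of all genes tested. Of 12 gut endoderm markers, 6 were higher in emGut and 0 lower, against 35.7% of all genes higher. The sums of the gut endoderm markers overlapped between emGut and YsEndo. The X-inactivation RNA Xist, which the tested table of protein-coding genes does not hold, stood at 14.4 to 41.9 TPM in YsEndo and at 0 to 0.252 TPM in emGut.

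Markers of other cells were counted too. The blood list summed to at most 76.8 TPM and the endothelial list to at most 5.66 TPM in any of the 12 libraries. The mesenchyme list summed to 40.5 to 105 TPM in emGut and 10.2 to 17.5 TPM in YsEndo. In emGut 6 of its 8 tested members were higher, against 35.7% of all genes tested. The notochord and tail bud list of 7 genes summed to 907 to 996 TPM in emHindgut, 1.16 to 45.8 TPM in emMidgut and 0.523 to 0.754 TPM in YsEndo. Of its genes, Fgf8, a growth factor of the tail bud, stood at 532, 319, 455 and 451 TPM in emHindgut, and T (brachyury), a mesoderm and notochord factor, at 239, 177, 258 and 312 TPM. Of the germ cell list, Dppa3 stood at 224, 0, 183 and 0 TPM and Pou5f1 at 93.6, 0, 131 and 0 TPM in emMidgut replicates 1 to 4, so replicates 1 and 3 held germ cell transcripts that replicates 2 and 4 did not. The depth of the libraries in reads is unknown, and the ratio of deposited coverage to FPKM, a relative measure of it, ran from 2.28 to 7.01 over the 12. Albumin (Alb), the defining product of hepatocytes, did not exceed 3.16 TPM in any of the 12 libraries.

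Of 13029 genes (protein-coding genes and the 2 reporters) above 1 TPM in at least 4 of the 12 libraries, 6069 differed between emGut and YsEndo at an adjusted p under 0.05 (limma) and by more than 1 on the log2(TPM + 1) scale, which is 46.6% of the genes tested. 4649 genes (35.7%) were higher in emGut and 1420 (10.9%) were lower. The emGut and YsEndo libraries did not overlap for 49.2% of genes. Because so many genes differed, each list below is to be read against these shares. Differences are given as emGut minus YsEndo with the standard error (SE), and where a group was listed at 0 their size depends on the 1 TPM added before the logarithm. A gene at 0 throughout 1 group passed the filter through the other group alone and could be called in only 1 direction. The emGut fit had no region term, so its SEs and p-values hold the midgut to hindgut difference besides the spread between pools of cells. For Afp the SE was 1.61 in this fit, and 0.36 for emMidgut against YsEndo in a model with 3 group means. The p-values of the regional contrasts measure the spread between pools of cells. In bulk libraries such as these, a change in the share of cells that express a gene and a change in RNA per cell cannot be told apart.

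The split into higher and lower genes depended on how libraries were scaled. YsEndo spent 11.9 to 12.5% of its TPM on its 10 most abundant genes, led by Afp, Apoa1, S100g, Rbp4 and Apoe, and emGut 5.54 to 6.32%. The median difference over all genes was 0.64 on the log2 scale in favor of emGut on TPM, and 0.11 after the libraries were rescaled by the median ratio of their genes. With rescaling, 3095 genes were higher and 2396 lower, so the higher genes made up 56.4% of the calls rather than 76.6%. Of the 4649 genes higher on TPM, 3095 were still called higher, 1554 were no longer called and 0 were called lower. The 1420 lower genes were still called lower, and 976 more joined them. Small positive differences are therefore described below against the shift of 0.64.

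**Figure D1:**
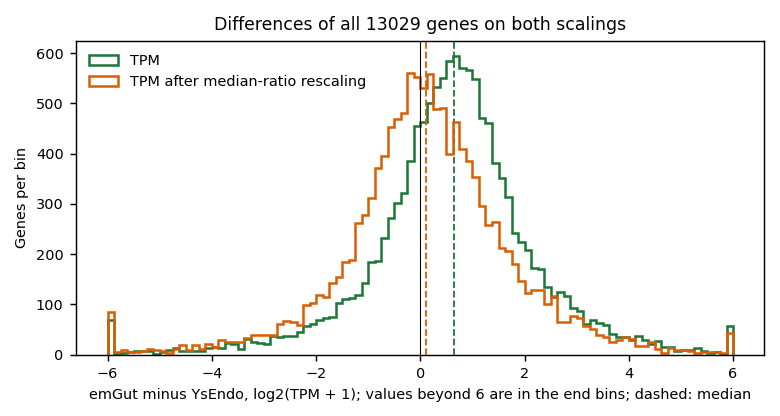
Histogram of the emGut minus YsEndo difference in mean log2(TPM + 1) for the 13029 genes tested, on TPM and after median-ratio rescaling, with the number of genes per bin on the vertical axis. Dashed lines mark the medians at 0.64 and 0.11: rescaling moved the distribution toward YsEndo.

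Serum protein genes were among the most abundant transcripts of YsEndo, and most were far lower in emGut. Afp, the fetal counterpart of albumin, stood at 24518, 23926, 27039.6 and 23871 TPM in the 4 YsEndo libraries, at 662, 734, 951 and 978 TPM in emMidgut and at 4.83, 2.13, 18.9 and 6.05 TPM in emHindgut. No libraries of the 3 groups overlapped, and the YsEndo mean was 29.9 times the emMidgut mean and 3110.5 times the emHindgut mean. Over emGut as a whole the log2 difference was -8.34 ± 1.61 (SE, n = 8 and 4, adjusted p = 0.0004). Transthyretin (Ttr), the thyroid hormone and retinol carrier, stood at 8315, 8439.6, 8228 and 9038 TPM in YsEndo, 148, 264, 268 and 261 TPM in emMidgut and 3.49, 0, 18.9 and 4.28 TPM in emHindgut. Its log2 difference was -8.02 ± 1.397 (adjusted p = 0.000163). Of 29 listed serum protein genes, 23 passed the filter on low values, 15 were lower in emGut, 2 were higher and 6 were not called. The median difference of the 23 was -4.09, against 0.64 for all genes. The 15 lower genes included the fibrinogen chains Fga, Fgb and Fgg, transferrin (Trf), plasminogen (Plg) and prothrombin (F2), with differences from -3.45 to -8.34. The 2 higher genes were Vtn, the adhesive protein vitronectin, and the complement inhibitor Serping1. Vtn stood at 262 to 319 TPM in emMidgut, 6.91 to 15.3 TPM in emHindgut and 2.58 to 6.59 TPM in YsEndo, with a log2 difference of 3.54 ± 1.09 (adjusted p = 0.0105).

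Apolipoprotein genes were among those with the largest differences of the whole comparison. Apoc2, the activator of lipoprotein lipase, stood at 7266, 5961, 5390.2 and 5683 TPM in YsEndo, was listed at 0 in 7 of 8 emGut libraries and stood at 1.68 TPM in the other. Its log2 difference was -12.38 ± 0.25 (adjusted p = 1.07e-13), the largest among the genes tested. Apoa2 stood at 5749 to 6351 TPM in YsEndo and 0 to 18.6 TPM in emGut (-11.06 ± 0.70), and Apoa4 at 1843 to 3038 TPM against 0 to 10.7 TPM (-10.66 ± 0.55). These 3 genes encode exchangeable coat proteins of lipoprotein particles, and none was above 20 TPM in emGut. Apoa1, the main protein of high-density lipoprotein, stood at 14160.3, 18414, 19249 and 19159 TPM in YsEndo, 29.7, 183, 236 and 259.5 TPM in emMidgut and 4.94, 1.58, 0.302 and 3.15 TPM in emHindgut (-9.76 ± 1.36, adjusted p = 2.15e-05). Apob, the scaffold of the larger lipoproteins, stood at 1072 to 1395 TPM in YsEndo, 29.7 to 44.6 TPM in emMidgut and 0 to 1.09 TPM in emHindgut (-7.38 ± 1.09, adjusted p = 3.72e-05). Of 22 listed lipoprotein genes, 20 were tested, 16 were lower in emGut, 1 was higher and 3 were not called, with a median difference of -4.95. The 16 also held Mttp, which loads lipid onto Apob, and Lcat, Soat2, Mogat2 and Dgat2, enzymes of lipid esterification. The 1 higher gene, Pltp, transfers phospholipid between particles and stood at 0 to 17.3 TPM in emGut and at no more than 0.232 TPM in YsEndo, with overlap between the groups. The 3 not called were Fabp1, Tm6sf2 and Dgat1.

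Afp and Apoa1 were abundant in YsEndo and graded along the gut, and Apoc2 differed most. All were far lower in emGut, and stretches upstream of them are shown. Each was taken from the 100 bases before the RefSeq transcription start (GRCm38.p6, 5′ to 3′ on the strand of the gene). The GENCODE gene model of Apoa1 starts at 46228580, inside these 100 bases, so only the 50 bases before it are shown. Capitals mark a word of FOXA sites, spelled TGTTTNC with N for any base. Both strands were searched, and the word was chosen after the sequences had been seen.
Afp, plus strand, chr5:90490614-90490713: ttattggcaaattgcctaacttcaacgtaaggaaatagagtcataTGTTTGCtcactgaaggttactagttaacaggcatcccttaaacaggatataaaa
Apoa1, plus strand, chr9:46228530-46228579: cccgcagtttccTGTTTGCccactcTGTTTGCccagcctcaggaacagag
Apoc2, minus strand, chr7:19677942-19678041: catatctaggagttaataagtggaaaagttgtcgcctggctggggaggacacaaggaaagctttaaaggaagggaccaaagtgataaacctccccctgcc
The word occurred once upstream of Afp and at 2 places upstream of Apoa1, and in 7.8% of the 27025 genes of the promoter table within the 100 bases before the start. Apoc2 did not hold it. A match is a run of letters, and binding was not measured.

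The genes of protein uptake were lower in emGut as well. Amn, which anchors cubilin at the apical membrane, stood at 708, 1338, 1551 and 1521 TPM in YsEndo and at 0 to 3.01 TPM in emGut, a log2 difference of -9.27 ± 0.40 (adjusted p = 1.23e-10). Cubn (cubilin), the receptor itself, stood at 711, 638, 661 and 669 TPM in YsEndo, 3.48, 4.22, 8.17 and 4.95 TPM in emMidgut and at 0 in 3 of 4 emHindgut libraries, with a log2 difference of -8.10 ± 0.62 (adjusted p = 5.27e-08). The third receptor gene, Lrp2 (megalin), differed less. It stood at 66.1 to 74.6 TPM in YsEndo, 2.76 to 8.54 TPM in emMidgut and 2.75 to 7.32 TPM in emHindgut (-3.60 ± 0.27, adjusted p = 3.62e-08). Dab2, the adaptor that couples these receptors to clathrin, stood at 1066 to 1274 TPM in YsEndo and 5.47 to 46.8 TPM in emGut (-6.15 ± 0.49, adjusted p = 7.35e-08). Of 17 listed genes of receptor uptake, 9 were lower in emGut, 3 were higher and 5 were not called. The 9 lower genes also held Scarb1, the receptor for high-density lipoprotein, and Fcgrt, the receptor for immunoglobulin G. The 3 higher genes included Vldlr and Tfrc, receptors for very-low-density lipoprotein and transferrin. The receptors thus went both ways, with the larger differences on the YsEndo side.

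Lysosomal genes followed with smaller differences. Of 31 tested, 19 were lower in emGut, 2 were higher and 10 were not called, with a median difference of -1.48. With median-ratio rescaling 25 were lower and 2 higher. The cysteine proteases led: Ctsh stood at 958, 1074, 1113 and 950.2 TPM in YsEndo and 2.46 to 13.51 TPM in emGut (-7.15 ± 0.29, adjusted p = 6.76e-11), and Ctsc at 1020.0, 947, 824 and 856 TPM and 4.61 to 28.6 TPM (-5.58 ± 0.35, adjusted p = 6.89e-09). Cathepsin L (Ctsl), cathepsin B (Ctsb), legumain (Lgmn) and the hexosaminidase subunit Hexa were among the 19. The 2 higher genes were Gusb and Psap, the precursor of the saposins, and Psap stood at 476 to 623 TPM in emMidgut, 172 to 233 TPM in emHindgut and 86.8 to 118 TPM in YsEndo. The aspartic protease Ctsd and the cholesterol exporters Npc1 and Npc2 were not called on TPM.

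Brush border and transporter genes were lower too: 20 of 29 tested were lower in emGut, 2 were higher and 7 were not called, with a median of -1.97. The glucose transporter Slc2a2 stood at 228, 220.0, 193 and 203 TPM in YsEndo and at 0 to 1.47 TPM in emGut (-7.45 ± 0.26, adjusted p = 1.62e-11). The cystine and dibasic amino acid transporter Slc7a9 stood at 196 to 275 TPM and 0 to 7.22 TPM (-6.86 ± 0.50, adjusted p = 3.41e-08). Villin (Vil1), ezrin (Ezr), the scaffold Pdzk1 and the microvillar cadherins Cdhr2 and Cdhr5 were among the 20. The 2 higher genes were Heph, a ferroxidase of iron export, and Stra6, the receptor for retinol-binding protein. Heph stood at 20.5 to 42.6 TPM in emGut and 0.134 to 0.788 TPM in YsEndo (4.54 ± 0.23, adjusted p = 8.36e-10), while Slc40a1, the iron exporter that it serves, was among the 20 lower genes. S100g and Spp2, which are in none of these lists, were among the 8 largest differences in favor of YsEndo, next to Apoc2, Apoa2, Apoa4, Apoa1, Amn and the mCherry reporter. S100g, a calcium-binding protein of absorptive epithelia, stood at 19449, 17088, 15719.5 and 15926 TPM in YsEndo, 14.2, 51.4, 73.2 and 53.4 TPM in emMidgut and 2.61, 2.42, 0.732 and 6.44 TPM in emHindgut (-10.44 ± 0.91). Spp2, a secreted phosphoprotein, stood at 2830.4 to 3187 TPM in YsEndo, 4.77 to 21.7 TPM in emMidgut and at 0 in the 4 emHindgut libraries (-9.63 ± 0.93).

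**Figure D2:**
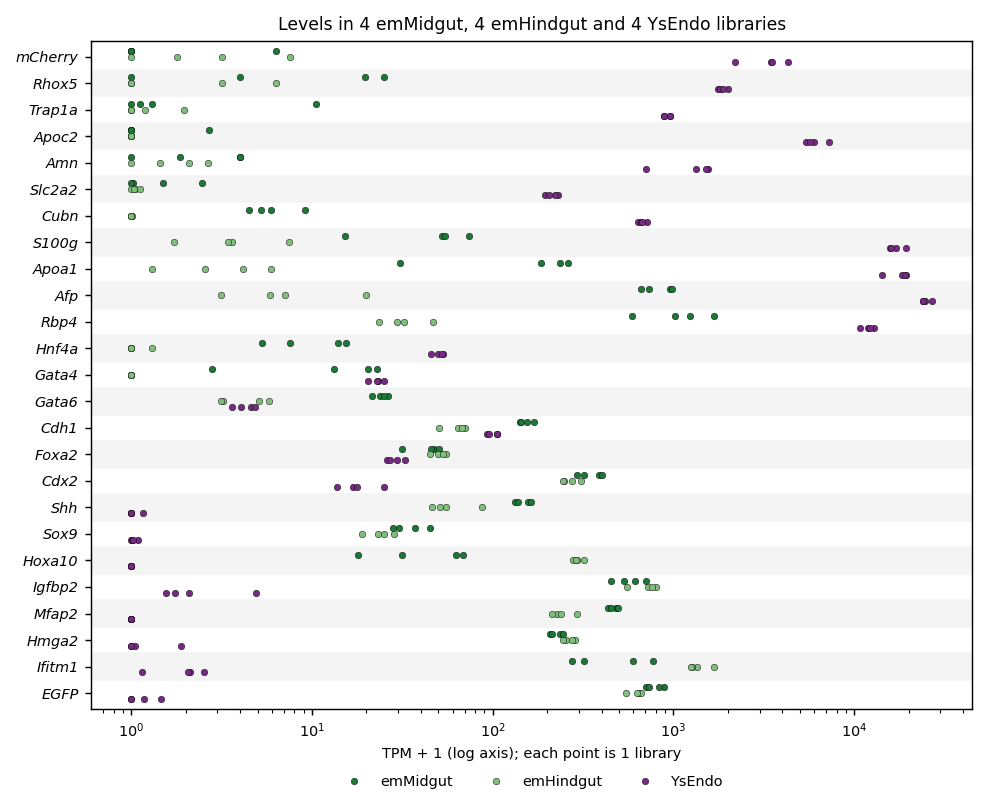
TPM + 1 on a log axis for 25 genes in the 4 emMidgut, 4 emHindgut and 4 YsEndo libraries, 1 point per library. From mCherry to Hnf4a the YsEndo points lie to the right of all emGut points, with Afp, Apoa1, S100g, Rbp4 and Hnf4a in a second step between emMidgut and emHindgut; for Gata4, Gata6, Cdh1 and Foxa2 the groups overlap; from Cdx2 to EGFP the YsEndo points lie to the left.

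The yolk sac genes were not equally low along the gut. A test of the difference between the 2 regional contrasts, which is the emHindgut minus emMidgut difference, passed an adjusted p under 0.05 for 3713 genes (28.5%). Among the 1420 genes lower in emGut, 479 differed between the regions, 369 of them with the higher level in emMidgut and 110 with the higher level in emHindgut. Among the 4649 genes higher in emGut the split was 718 and 602, and over all 3713 it was 1962 and 1751. Counts of list members that differed between regions, here and below, are to be read against 1962 and 1751 of 13029 genes. Rbp4, the plasma carrier of retinol, stood at 10743, 12829.9, 11944 and 12165 TPM in YsEndo, 586, 1231, 1671 and 1024 TPM in emMidgut and 31.4, 22.6, 45.9 and 28.7 TPM in emHindgut. The emMidgut mean was 35.1 times the emHindgut mean (log2 difference between regions -5.04, adjusted p = 8.07e-10). For Afp the emMidgut mean was 104 times the emHindgut mean (-6.85, adjusted p = 1.58e-09), for Apob 75.3 times and for Apoa1 71.1 times. The regions did not overlap for any of these 4 genes, and the emMidgut level lay between the other 2 groups in each case. Of the 23 serum protein genes tested, 18 were higher in emMidgut than in emHindgut and 0 were lower. The same count was 23 and 0 of 31 for lysosomal genes, 10 and 2 of 20 for lipoprotein genes and 15 and 2 of 29 for brush border and transport genes. Lysosomal genes had a median difference from YsEndo of -0.64 in emMidgut and -2.34 in emHindgut, where the medians of all genes were 0.61 and 0.62. Amn (0 to 3.01 and 0 to 1.67 TPM), Lrp2 (2.76 to 8.54 and 2.75 to 7.32 TPM) and Apoc2 did not pass the test between regions.

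Extraembryonic cells of the gut (exGut: exMidgut and exHindgut, 4 libraries each), which are mCherry+ like YsEndo but lie inside the gut, give a further position on this scale. Their values are set beside the others without a test. The exMidgut mean of Afp was 6588 TPM and its exHindgut mean 186 TPM. Both lay between the embryonic cells of the same region and YsEndo. The summed level of the lipoprotein list was 43277 to 52031 TPM in YsEndo, 1751 to 4951 TPM in exMidgut and 706 to 1286 TPM in emMidgut, with 319 to 383 TPM in exHindgut and 299 to 388 TPM in emHindgut. The 2 hindgut groups overlapped in this sum, and the 2 midgut groups did not.

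**Figure D3:**
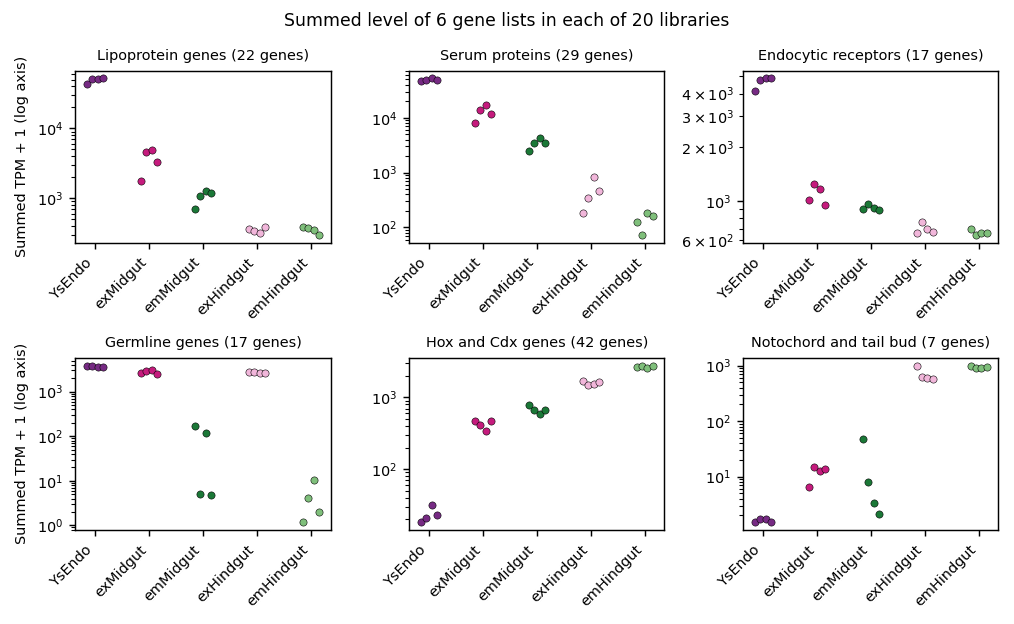
Summed TPM + 1 (log axis) of 6 gene lists in each of 20 libraries, ordered as YsEndo, exMidgut, emMidgut, exHindgut and emHindgut, 1 point per library. The lipoprotein, serum and receptor lists step down from YsEndo over the midgut to the hindgut. The germline list separates YsEndo and exGut from emGut. The Hox and Cdx list and the notochord and tail bud list rise from YsEndo over the midgut to the hindgut.

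Transcription factors of endoderm fell into 3 patterns. Of 25 listed, 21 were tested, 6 were higher in emGut, 4 lower and 11 not called. The share called was 47.6%, against 46.6% of all genes. The 4 lower genes included Hnf4a, Gata4 and Nr1h4, regulators of hepatic and absorptive genes. Hnf4a stood at 48.6, 44.3, 51.8 and 51.5 TPM in YsEndo, 4.27, 6.54, 14.4 and 13.02 TPM in emMidgut and 0, 0, 0 and 0.308 TPM in emHindgut (-3.96 ± 0.78, adjusted p = 0.000462). Gata4 stood at 19.3, 22.2, 21.9 and 24.0 TPM in YsEndo, 1.81, 12.3, 19.4 and 21.8 TPM in emMidgut and at 0 in the 4 emHindgut libraries. Its level in emMidgut overlapped with YsEndo and did not pass the test (log2 difference -0.99, adjusted p = 0.0778), while emGut as 1 group (-2.75 ± 0.92, adjusted p = 0.0165) and emHindgut (-4.51, adjusted p = 4.45e-07) did. Gata6 also differed by region: emMidgut stood at 20.5 to 25.2 TPM, above YsEndo at 2.62 to 3.86 TPM (log2 difference 2.50, adjusted p = 3e-07), and emHindgut at 2.14 to 4.81 TPM (-0.03, adjusted p = 0.911). For emGut as 1 group Gata6 was not called (adjusted p = 0.0925), nor was Sox17 (1.58 ± 0.78, adjusted p = 0.0841). With region as a term of the model both were called higher, and the list then held 10 higher factors in place of 6. Foxa2, a pioneer factor of all endoderm, stood at 30.6 to 54.3 TPM in emGut and 25.0 to 31.5 TPM in YsEndo, and its log2 difference of 0.71 ± 0.15 was close to the shift of all genes.

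The 6 higher factors were Isl1, Sox9, Foxa1, Hhex, Nr2f2 and Grhl2. Isl1, a LIM homeodomain factor, was listed at 0 in all 4 YsEndo libraries and stood at 40.2, 55.9, 5.48 and 28.4 TPM in emMidgut and 201, 180.4, 244 and 158 TPM in emHindgut (6.15 ± 0.79, adjusted p = 9.73e-06). Sox9, a factor of epithelial progenitors, stood at 17.9 to 43.7 TPM in emGut and at no more than 0.0855 TPM in YsEndo (4.79 ± 0.23, adjusted p = 3.7e-10).

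Hox and Cdx genes gave the most uniform list on the emGut side. Of 42 listed, 41 were tested, 37 were higher in emGut, 0 were lower and 4 (Cdx1, Hoxb1, Hoxc12 and Hoxc13) were not called over emGut as 1 group. Many members were listed at 0 in all YsEndo libraries and passed the filter through emGut alone. For these the direction was fixed in advance, so the count of 0 lower is no independent evidence. The median difference was 3.45 on TPM and 3.18 after rescaling, and 37 were called higher on each. The list summed to 17.4 to 30.9 TPM in YsEndo, 582 to 792 TPM in emMidgut and 2572 to 2757 TPM in emHindgut. Most of the sum in YsEndo was Cdx2, a determinant of the intestinal epithelium that trophectoderm also uses, at 12.8, 15.8, 23.9 and 16.7 TPM. In emGut Cdx2 stood at 320.1, 293, 384 and 401 TPM in emMidgut and 248, 242, 272 and 306 TPM in emHindgut (4.09 ± 0.17, adjusted p = 9.63e-11). Hoxa10, a posterior Hox gene, was listed at 0 in all YsEndo libraries and stood at 61.8, 67.5, 17.0 and 30.4 TPM in emMidgut and 292, 319.7, 279 and 289 TPM in emHindgut (6.76 ± 0.73, adjusted p = 1.66e-06). Cdx4 was listed at 0 in YsEndo, stood at 42.6, 34.4, 3.57 and 2.83 TPM in emMidgut and reached 451, 509, 437 and 526 TPM in emHindgut (6.29 ± 1.32, adjusted p = 0.000785).

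Within emMidgut, replicates 1 and 2 had more Hoxa10 and Cdx4 than replicates 3 and 4, and within emHindgut the 4 libraries lay close together. Of the 41 Hox and Cdx genes tested, 38 were higher in emHindgut than in emMidgut and 0 were lower. Against YsEndo alone, 32 were called higher in emMidgut and 41 in emHindgut. Hoxb1, an anterior gene of its cluster that is also active in the primitive streak and tail bud, stood at 65.5, 54.5, 54.8 and 45.3 TPM in emHindgut, 0.122, 0, 0 and 0 TPM in emMidgut and at 0 in YsEndo. The tail bud markers Fgf8 and T were likewise high in the 4 emHindgut libraries, and in emMidgut replicate 1 they stood at 30.7 and 11.9 TPM. The part of tail bud cells in the emHindgut levels was not tested.

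**Figure D4:**
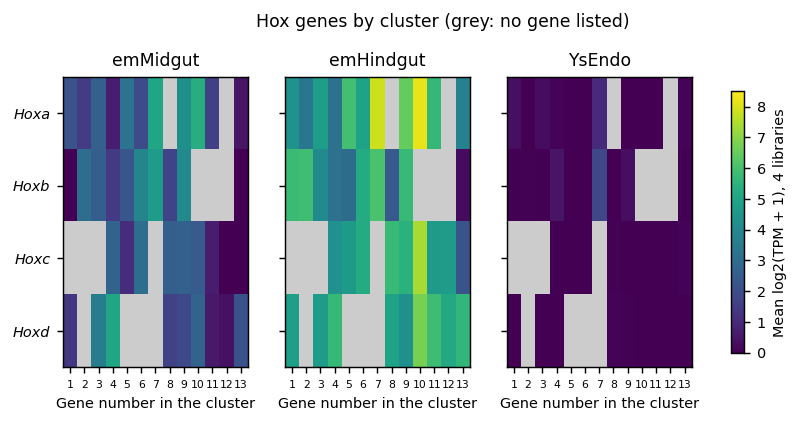
Mean log2(TPM + 1) over 4 libraries of every Hox gene listed, by cluster (rows) and gene number in the cluster (columns), in emMidgut, emHindgut and YsEndo; grey marks numbers with no gene listed. YsEndo is near 0 apart from Hoxa7 and Hoxb7, and emHindgut is brighter than emMidgut in most squares, with its highest levels in the Hoxa, Hoxc and Hoxd clusters at number 10.

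The signaling lists are to be read against the 35.7% of all genes that were higher in emGut: the share was 73.3% for the hedgehog list, 68.4% for Wnt and 60% for BMP, and 43.8% for retinoic acid, nearer to the share of all genes. In the hedgehog pathway 11 of 15 tested were higher and 0 lower, with a median of 1.95. Shh, the ligand of the gut epithelium, stood at 131, 155, 161 and 138 TPM in emMidgut, 50.2, 45.4, 86.6 and 53.9 TPM in emHindgut and 0.156, 0, 0 and 0 TPM in YsEndo (6.48 ± 0.35, adjusted p = 1.54e-09). The related ligand Ihh, known from the yolk sac endoderm, was not called. Among receptors and transducers, Ptch1, itself a target of the pathway, stood at 21.8 to 62.6 TPM in emGut and 3.15 to 5.91 TPM in YsEndo (2.94 ± 0.29, adjusted p = 6.54e-07), and Smo, Boc, Cdon and Gas1 were higher too. Of the transcription factors, Gli3 stood at 16.7 to 35.9 TPM in emGut and at no more than 0.0626 TPM in YsEndo (4.63 ± 0.24, adjusted p = 8.7e-10).

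In the Wnt pathway 26 of 38 tested were higher, 2 lower and 10 not called, with a median of 1.83. Of the ligands, Wnt5a stood at 134, 136, 129 and 149 TPM in emHindgut, 19.3, 16.9, 12.3 and 9.91 TPM in emMidgut and at no more than 0.366 TPM in YsEndo (5.39 ± 0.76, adjusted p = 2.37e-05). Of the nuclear factors, Lef1 stood at 186, 274, 194 and 163 TPM in emHindgut, 58.1, 26.6, 19.97 and 23.0 TPM in emMidgut and at no more than 0.0933 TPM in YsEndo (6.25 ± 0.68, adjusted p = 1.8e-06). The receptors Fzd1, Fzd2, Fzd3, Fzd7, Fzd8 and Fzd10 and the targets Axin2, Sp5 and Nkd1 were among the 26. The 2 lower genes, Fzd4 and Lrp5, are a receptor and a co-receptor. Between regions, 18 Wnt pathway genes were higher in emHindgut and 8 in emMidgut. The tail bud list, which shares Wnt3a with the pathway, was high in the same emHindgut libraries, and its part in these counts was not tested.

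In the BMP pathway 15 of 25 tested were higher, 1 lower and 9 not called, with a median of 1.58. The ligand Bmp4 stood at 151, 230.2, 147 and 149.6 TPM in emHindgut, 20.4, 15.3, 1.65 and 6.12 TPM in emMidgut and at no more than 1.16 TPM in YsEndo (4.77 ± 1.07, adjusted p = 0.00131). Bambi, a pseudoreceptor that dampens the signal, stood at 28.9 to 85.2 TPM in emGut and 0.751 to 2.78 TPM in YsEndo (4.34 ± 0.31, adjusted p = 2.27e-08), and the secreted antagonists Nog and Chrd were also higher. The 1 lower gene was the ligand Bmp6, at 5.91 to 9.48 TPM in YsEndo and 0 to 1.80 TPM in emGut (-2.65 ± 0.34, adjusted p = 9.81e-06). Between regions, 13 were higher in emHindgut and 1 in emMidgut. The tail bud list moved with this count as with the Wnt list, and its part in it was not tested.

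In the retinoic acid pathway 7 of 16 tested were higher and 1, Rbp4, was lower, with a median of 1.42, and 50% were called against 46.6% of all genes. Rarb, a nuclear receptor and itself a target of retinoic acid, was listed at 0 in YsEndo and stood at 66.9, 95.2, 91.4 and 106 TPM in emMidgut and 20.5, 6.92, 20.5 and 2.30 TPM in emHindgut (4.94 ± 0.82, adjusted p = 0.000109), so its emMidgut mean was 7.17 times that of emHindgut. The cellular carriers Crabp1 and Crabp2 and the synthetic enzyme Aldh1a2 were among the 7. The retinoic acid receptors Rara, Rarb and Rarg were thus called higher in emGut, and the retinol carrier Rbp4 was called lower.

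Genes of axon guidance, many of which also act between epithelium and mesenchyme, were higher in emGut for 39 of 52 tested and lower for 1 (Sema4a), with a median of 1.84. Robo2, a receptor for Slit, stood at 94.5 to 149 TPM in emMidgut, 41.3 to 51.3 TPM in emHindgut and at no more than 0.107 TPM in YsEndo (6.19 ± 0.36, adjusted p = 3.06e-09). Nrp1, a receptor for class 3 semaphorins and a co-receptor for vascular endothelial growth factor, stood at 38.5 to 94.0 TPM in emGut and 0 to 0.998 TPM in YsEndo (5.31 ± 0.25, adjusted p = 3.7e-10). After rescaling, 35 of the 52 were higher and 4 lower. The mesenchyme markers given above also stood higher in emGut, at sums of at most 105 TPM. Their part in this list was not tested.

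Junction and keratin genes were divided. Of 32 tested, 11 were higher in emGut, 3 lower and 18 not called, and the median difference was 0.05 on TPM and -0.54 after rescaling, when 7 were higher and 9 lower. The median thus changed sign with the scaling. The share called was 43.8%, against 46.6% of all genes. The claudins went both ways. Cldn2, which forms a pore for cations, stood at 288, 243, 263 and 267 TPM in YsEndo and 0 to 12.5 TPM in emGut (-6.55 ± 0.71, adjusted p = 1.71e-06), and Cldn9 stood at 0 to 3.34 TPM in YsEndo and 49.4 to 127 TPM in emGut (5.45 ± 0.32, adjusted p = 3.56e-09). The gap junction genes Gjb1 and Gjb2 were lower in emGut, and Krt19, Cdh2 and Cdh6 were higher. Of 21 basement membrane genes tested, 10 were higher and 1, Nid2, was lower, so 52.4% were called, not far from the share of all genes. Col4a5 stood at 4.68 to 15.1 TPM in emGut and at no more than 0.115 TPM in YsEndo (3.29 ± 0.26), and the laminin chain Lamb3 at 15.8 to 30.0 TPM in emMidgut, 1.21 to 4.45 TPM in emHindgut and at no more than 0.268 TPM in YsEndo (3.01 ± 0.73, adjusted p = 0.00229). After rescaling, 7 basement membrane genes were higher and 4 lower.

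**Figure D5:**
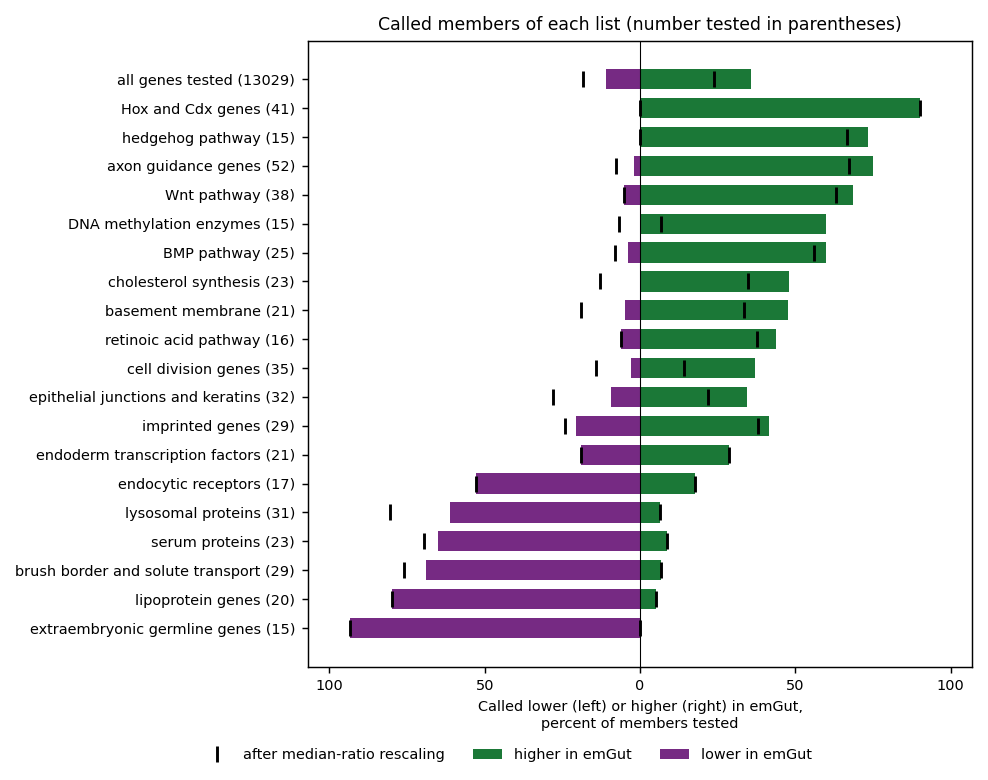
Share of the tested members of 19 gene lists, and of all 13029 genes, called higher (right) or lower (left) in emGut than in YsEndo, in percent; black marks give the same shares after median-ratio rescaling. The Hox and Cdx, hedgehog, axon guidance, Wnt and BMP lists extend to the right on both scalings, the germline, lipoprotein, serum, brush border and lysosomal lists to the left, and the DNA methylation and cell division lists move with the scaling.

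The 8 largest differences in favor of emGut were EGFP, Ifitm1, Ifitm2, Mfap2, Igfbp2, Nrep, Hmga2 and Capn6. Ifitm1 and Ifitm2, small interferon-inducible membrane proteins, stood at 275 to 1679 and 877 to 1747 TPM in emGut and at no more than 1.54 and 2.42 TPM in YsEndo, with log2 differences of 8.70 ± 0.46 and 8.63 ± 0.17. The close family members Ifitm1, Ifitm2 and Ifitm3 are similar in sequence, and how reads shared among them were assigned is uncertain. Mfap2, a protein of extracellular microfibrils, was listed at 0 in all YsEndo libraries and stood at 431, 481, 452 and 493 TPM in emMidgut and 226, 212, 289.9 and 237 TPM in emHindgut (8.39 ± 0.24, adjusted p = 2.75e-12). In exGut, whose cells share their lineage label with YsEndo and their place with emGut, the Mfap2 mean was 7.27 TPM in exMidgut and 4.21 TPM in exHindgut.

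Igfbp2, a binding protein for insulin-like growth factors, stood at 448 to 799 TPM in emGut and 0.566 to 3.92 TPM in YsEndo (8.10 ± 0.26), and Hmga2, an architectural chromatin protein of fetal tissues, at 207 to 285 and 0 to 0.896 TPM (7.68 ± 0.17). Capn6, a calpain without protease activity, and Nrep completed the set with log2 differences of 7.65 ± 0.17 and 7.83 ± 0.31. Unlike for Mfap2, the exGut means of these 4 genes were far above the YsEndo values, from 209.9 TPM for Hmga2 in exMidgut to 917 TPM for Igfbp2 in exHindgut. The exGut values were not tested against either group.

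Cholesterol synthesis genes were called about as often as all genes, 47.8% against 46.6%. Of 23 tested, 11 were higher in emGut, 0 lower and 12 not called, with a median of 0.78 on TPM (0.64 for all genes) and 0.24 after rescaling (0.11 for all genes), when 8 were higher and 3 lower. Squalene epoxidase (Sqle) stood at 65.2 to 128 TPM in emGut and 7.71 to 12.6 TPM in YsEndo (3.01 ± 0.17, adjusted p = 2.6e-09). The enzymes Hmgcs1, Idi1, Fdps and Cyp51 were also among the 11. Between regions, 13 were higher in emHindgut and 0 in emMidgut, against 1751 and 1962 of all 13029 genes.

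Germline genes known from extraembryonic tissue, 14 of the 17 listed being X-linked, were low in both GFP+ groups. Of the list, 15 were tested, 14 were lower in emGut and 1 (Rhox9) was not called. The study names Rhox5, Trap1a, Mageb16, Tekt5, Tex101, Xlr3c and Slc25a31 as higher in exGut than in these same emGut libraries. A low level in emGut was thus partly fixed in advance, and the count is no independent evidence. The 14 were 13 X-linked genes and the autosomal Slc25a31, and the autosomal Tex101 and Tekt5 were not tested. Rhox5, a reproductive homeobox gene known from extraembryonic tissue, stood at 1771, 2005, 1818 and 1884 TPM in YsEndo, 18.6, 3.01, 24.1 and 0 TPM in emMidgut and 0, 2.18, 5.34 and 0 TPM in emHindgut (-8.96 ± 0.82, adjusted p = 3.17e-07). Trap1a stood at 881 to 958 TPM in YsEndo and 0 to 9.53 TPM in emGut (-9.20 ± 0.52, adjusted p = 2.17e-09). In exGut the Rhox5 means were 1032 and 814 TPM and the Trap1a means 561 and 540.5 TPM. The highest emMidgut values of Rhox5 were in replicates 1 and 3, and Rhox9 stood at 71.7, 0, 68.3 and 0 TPM in emMidgut replicates 1 to 4. These are the replicates with Dppa3 and Pou5f1, and the part of germ cell transcripts in these values was not tested. The study states that dual-labeled cells can hold some remnants of extraembryonic transcripts, and the part of such remnants was not tested either. Without these 2 libraries, 15 members were called lower, Rhox9 among them. Several genes of the Xlr and Rhox clusters are near-identical copies, so the count is not of independent genes.

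Imprinted genes went both ways: of 31 listed, 29 were tested, 12 were higher in emGut, 6 lower and 11 not called. The share higher was 41.4%, near the 35.7% of all genes, and the share lower was 20.7%, against 10.9% of all genes. The amino acid transporter Slc38a4 stood at 82.7 to 123 TPM in emGut and 0.367 to 0.888 TPM in YsEndo (5.98 ± 0.15, adjusted p = 6.26e-13), and Ndn (necdin) at 66.3 to 102 and 0.173 to 1.35 TPM (5.73 ± 0.21, adjusted p = 2.52e-11). Both are known as paternally expressed. Of the lower genes, Phlda2, a maternally expressed restraint on placental growth, stood at 1472, 2146, 2313 and 2159.8 TPM in YsEndo and 4.48 to 132 TPM in emGut (-5.23 ± 0.71, adjusted p = 1.7e-05). The neighbors Igf2 and H19 moved in opposite directions. Igf2, a growth factor, stood at 109 to 204 TPM in emGut and 58.9 to 78.6 TPM in YsEndo (1.27 ± 0.18), and after rescaling it was no longer called. H19, a long noncoding RNA outside the table of protein-coding genes, stood at 698, 810.5, 828 and 759 TPM in YsEndo, 5.82, 3.05, 119 and 138 TPM in emMidgut and 8.00, 7.46, 106 and 137 TPM in emHindgut. In both gut regions replicates 1 and 2 were below 9 TPM and replicates 3 and 4 above 100 TPM, while no emGut library overlapped with YsEndo. The fit over all gene types gave a log2 difference of -4.73 ± 0.99 (adjusted p = 0.000752).

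DNA methylation enzymes and cell division genes depended on the scaling. Of 15 methylation genes tested, 9 were higher in emGut and 0 lower on TPM, and 1 was higher and 1 lower after rescaling. Uhrf2 stood at 48.2 to 68.4 TPM in emGut and 16.1 to 20.3 TPM in YsEndo (1.59 ± 0.13), and Mbd3, of the NuRD complex, at 94.1 to 153 and 28.9 to 56.0 TPM (1.46 ± 0.18, not called after rescaling). The 2 de novo methyltransferases Dnmt3a and Dnmt3b were not called on either scaling. Of 35 cell division genes tested, 13 were higher and 1 lower on TPM, and 5 and 5 after rescaling, when the median went from 0.52 to -0.06. The share called on TPM was 40%, against 46.6% of all genes. The cyclins Ccnd1 and Ccnd2 were higher on both: Ccnd2 stood at 117, 176, 121 and 181 TPM in emMidgut, 205, 225, 173 and 193 TPM in emHindgut and 0.252 to 1.13 TPM in YsEndo (6.73 ± 0.21, adjusted p = 4.22e-12), and Ccnd1 at 48.4 to 80.5, 255 to 279 and 0.231 to 1.33 TPM (6.34 ± 0.49, adjusted p = 5.91e-08). The 1 lower gene was Cdkn2a, a cell cycle inhibitor locus, at 52.7 to 91.1 TPM in YsEndo, 8.44 to 24.7 TPM in emMidgut and 0.188 to 3.22 TPM in emHindgut (-3.55 ± 0.73, adjusted p = 0.000671). The proliferation marker Mki67 was not called.

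By region, emMidgut differed from YsEndo at 6168 genes (47.3%) and emHindgut at 6327 (48.6%). Of these, 3662 genes were higher than YsEndo in both regions and 1134 were lower in both. Few went opposite ways: 29 were higher in emMidgut and lower in emHindgut than YsEndo, and 10 the reverse. A further 1333 were called in emMidgut alone and 1492 in emHindgut alone, which does not by itself show that the regions differ. The 2 regional comparisons share the 4 YsEndo libraries. Over the 13029 genes, library values correlated at 0.742 on average between emMidgut and YsEndo, 0.712 between emHindgut and YsEndo and 0.878 between the gut regions, with 0.942 to 0.986 within groups. These are correlations across genes, which are not independent replicates.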

How the data were processed

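Per the labels and the study's methods, adapters were removed by the authors (cutadapt 4.1), STAR 2.7.9a placed reads on mm10 plus the reporter sequences, and StringTie 2.0.6 quantified annotated genes. The deposited tables hold TPM, FPKM and coverage (signal) per gene, with no read counts, so a log-scale model stood in for a count model. TPM was summed per gene ID, and the relative depth of a library was taken as the median of coverage over FPKM. Gene types came from GENCODE vM21, which matched 32235 of 32287 IDs. Protein-coding genes outside the Y chromosome and the 2 reporters, above 1 TPM in at least 4 of 12 libraries, were fitted with limma 3.58.1 (R 4.3.3; eBayes with trend) on log2(TPM + 1). Calls required an adjusted p (Benjamini-Hochberg) under 0.05 and a difference above 1. Region contrasts came from a model with 3 group means, and the difference between regions was called on the adjusted p alone. For rescaling, size factors were median ratios over 10716 genes above 0 in all 12 libraries. The fit was tested on simulated data. The members and the 19 gene lists were chosen with earlier results of these data known. The genes named were a set of markers, the 8 largest differences in each direction and the 2 largest called members of each list, and 13 genes added after their values were seen, among them Dab2, Pltp, Vtn, Psap, Heph, Ptch1, Fgf8, T, Bmp6, Phlda2, Cdkn2a and Hoxb1. Dppa3, Pou5f1, Rhox9 and Alb were singled out in the same way. Promoter sequences are from RefSeq (GRCm38.p6), which held 10235 of 13020 symbols tested and all 3 genes shown. Some members of the lists are counted but not reported by name here.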

Additional observations from a re-analysis of the deposited data

Results flagged for a closer look

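For 28 genes, 1 of the 4 libraries of a group stood apart from the other 3 by Dixon's criterion at the 95% level. Chance passes it in about 1 in 20 groups where all values vary, but where the other 3 are at 0 any value above 0 passes. In YsEndo, the genes above 0 in 1 library and listed at 0 in the other 3 were Shh (0.156 TPM in replicate 1), Capn6 (0.0768 TPM in replicate 3), Gli3 (0.0626 TPM in replicate 4), Lef1 (0.0933 TPM in replicate 1), Col4a5 (0.115 TPM in replicate 1) and Lamb3 (0.268 TPM in replicate 2). In emMidgut, the genes above 0 in 1 library and listed at 0 in the other 3 were mCherry (5.29 TPM in replicate 1), Xist (0.195 TPM in replicate 1), Apoc2 (1.68 TPM in replicate 4), Fgf8 (30.7 TPM in replicate 1) and Hoxb1 (0.122 TPM in replicate 1). In emHindgut, the genes above 0 in 1 library and listed at 0 in the other 3 were Cubn (0.00448 TPM in replicate 1), Hnf4a (0.308 TPM in replicate 4), Slc7a9 (1.52 TPM in replicate 1) and Cldn2 (0.323 TPM in replicate 4). These traces were under 10 TPM except for Fgf8.

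The others had values above 0 in at least 2 libraries of the group. Epcam stood at 279.8 TPM in YsEndo replicate 3 against 239 to 245 TPM in the other 3. Apoa1 stood at 14160.3 TPM in YsEndo replicate 1 against 18414 to 19249 TPM in the other 3. Igfbp2 stood at 3.92 TPM in YsEndo replicate 1 against 0.566 to 1.10 TPM in the other 3. Hmga2 stood at 0.896 TPM in YsEndo replicate 1 against 0 to 0.0562 TPM in the other 3. Wnt5a stood at 0.366 TPM in YsEndo replicate 2 against 0 to 0.0409 TPM in the other 3. Pltp stood at 0.232 TPM in YsEndo replicate 2 against 5.01e-04 to 0.0393 TPM in the other 3. Trap1a stood at 9.53 TPM in emMidgut replicate 3 against 0 to 0.297 TPM in the other 3. Ttr stood at 148 TPM in emMidgut replicate 1 against 261 to 268 TPM in the other 3. Apoa4 stood at 10.7 TPM in emMidgut replicate 4 against 0 to 0.828 TPM in the other 3. Nrp1 stood at 94.0 TPM in emMidgut replicate 2 against 46.7 to 50.9 TPM in the other 3. Ctsh stood at 2.46 TPM in emHindgut replicate 2 against 5.64 to 6.24 TPM in the other 3. Bmp4 stood at 230.2 TPM in emHindgut replicate 2 against 147 to 151 TPM in the other 3. Bambi stood at 85.2 TPM in emHindgut replicate 1 against 70.1 to 72.7 TPM in the other 3.

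Over all 13029 genes tested, 3713 (28.5%) differed between the gut regions at an adjusted p under 0.05 (limma). The named genes were chosen in part for large differences, so a count among them is no sample of all genes. The difference from YsEndo itself differed between the 2 gut regions for 42 named genes, by the limma test of emHindgut minus emMidgut (log2 difference after each gene, adjusted p from 1.41e-10 to 0.0258). The level was lower in emHindgut for 26 of them, with the widest differences for Afp (-6.85), Ttr (-5.62), Apoa1 (-5.50), Rbp4 (-5.04), Apob (-4.67), Vtn (-4.62), Spp2 (-3.86), S100g (-3.58), Gata4 (-3.52) and Hnf4a (-3.17). Smaller negative differences belonged to Rarb (-3.10), Lamb3 (-2.94), Cdkn2a (-2.82), Cldn2 (-2.81), Cubn (-2.58), Gata6 (-2.53), Apoa2 (-2.51), Dab2 (-1.68), Slc7a9 (-1.49) and Robo2 (-1.398), and the smallest to Psap (-1.37), Shh (-1.34), Cdh1 (-1.27), Epcam (-1.15), Nrep (-1.05) and Mfap2 (-0.95). The level was higher in emHindgut for 16 genes, and the widest differences were those of Fgf8 (7.51), T (6.45), Hoxb1 (5.75), Cdx4 (5.23), Bmp4 (4.21), Wnt5a (3.19), Isl1 (2.91) and Hoxa10 (2.904). Smaller positive differences belonged to Lef1 (2.74), Sox17 (2.43), Ccnd1 (1.99), Ifitm1 (1.62), Bambi (0.99), Ptch1 (0.96), Gli3 (0.69) and Ifitm2 (0.55).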

How the results depend on the processing

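Scaling was the choice that moved the results. The genes called higher in emGut than in YsEndo numbered 4649 on TPM, 3095 with median-ratio rescaling and 2406 with quantile normalization, and the genes called lower 1420, 2396 and 2359. For emMidgut against YsEndo the higher genes numbered 4770 on TPM and 2526 with quantile normalization, and the lower genes 1398 on TPM, 2470 with median-ratio rescaling and 2530 with quantile normalization. For emHindgut against YsEndo the corresponding numbers were 4694, 3110 and 2629 for higher genes and 1633, 2525 and 2535 for lower genes. The cause of the shift was not tested. Leaving out each library in turn gave 5798 to 6125 calls for emGut, 6013 to 6184 for emMidgut and 6205 to 6396 for emHindgut, and 3188 to 3696 genes differing between the regions. The labels do not say whether libraries of the same replicate number came from the same embryos. Deviations of same-numbered libraries correlated at -0.0065 to 0.0597 over all genes, which cannot decide this. H19 split by replicate number in both gut regions, and the main fit took the libraries as unpaired. With the replicate number as a block, 5923 genes were called, 5915 of them in common with the 6069. Leaving out emMidgut replicates 1 and 3 together, chosen after seeing their germ cell transcripts, gave 6188 calls.

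Among the named genes, 1701 of the alternative values kept direction and side of the threshold, 10 lost the call, 14 gained it and 0 reversed. Epcam (0.55), Igf2 (0.68) and Mbd3 (0.87) lost it with median-ratio rescaling, Epcam also without emMidgut replicates 1 and 3 (0.96), and Fgf8 without the filter, with the block and without each YsEndo library. Sox17, Gata6 and Hoxb1 gained it, among others with region in the model. Of the counts of list members, 34 moved by over 1.5 times and 840 did not. The DNA methylation list was the clearest case, with 9 higher genes on TPM, 5 on FPKM, 1 with median-ratio rescaling and 2 with quantile normalization. Depth in reads is unknown, so zeros set no limit on a level.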

Other observations

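Several values belong to no comparison above. The germ cell list (8 genes, Ifitm3 among them) summed to 601, 108, 613 and 123 TPM in emMidgut replicates 1 to 4, to 52.4 to 72.4 TPM in emHindgut and to 9.98 to 13.8 TPM in YsEndo. Ifitm3 itself, which many cells express, was called higher in emGut (5.92). The exGut libraries held less of the notochord and tail bud list in the midgut (5.58 to 13.99 TPM) than in the hindgut (586 to 986 TPM), as emGut did. The blood list summed to 11.1 to 15.1 TPM in emMidgut, 30.7 to 39.9 TPM in emHindgut and 55.1 to 76.8 TPM in YsEndo. Of the other marker lists, the gut endoderm list summed to 1963 to 4958 TPM in emGut and 2159.5 to 2735 TPM in YsEndo, the neural list to 7.74 to 35.3 and 0.163 to 1.58 TPM, the surface ectoderm list to 15.3 to 86.7 and 23.7 to 35.8 TPM, and the mesothelial list to 8.59 to 235 and 0 to 1.17 TPM. Most of the mesothelial sum in emHindgut and in YsEndo was Bmp4, and without it the sum was 5.70 to 8.21 TPM in emMidgut, 2.34 to 10.7 TPM in emHindgut and at most 0.0155 TPM in YsEndo. The parietal endoderm list summed to 296 to 879 TPM in emGut and 765 to 948 TPM in YsEndo, the trophoblast list to 43.9 to 213 and 112 to 155 TPM, and the hepatic and pancreatic list, which holds Afp, to 55.9 to 1060.1 and 23873 to 27042 TPM.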
